A study of Mus musculus with 6 samples.

Results

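The clustered histone genes encode the proteins that package newly made DNA, and they were measured here by 58 of the 35512 probe sets of an Affymetrix mouse array. A probe set was a member if its platform annotation listed at least 1 gene of the histone clusters once named Hist1, Hist2, Hist3 and Hist4, so probe sets shared between near-identical genes were kept. Together they list 69 clustered histone genes, of 21335 genes listed on the array. Of the 58, 31 list 1 symbol and 27 list several, from 2 to 20. By family, 5 belong to the linker histone H1, 6 to H2A, 18 to H2B, 13 to H3 and 13 to H4, and the 3 that list genes of more than 1 family are kept apart as mixed. Of 70 clustered histone genes in the RefSeq gene table, 31 have a probe set of their own, 38 occur in shared probe sets only, and 1 was not analysed here.

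The study took livers from 3 weaned CyclinB1-GFP transgenic mice aged 3.5 weeks, which carry a green fluorescent reporter named after the mitotic cyclin B1. Dissociated cells were sorted by fluorescence into GFP-positive cells, which the labels call replicating, and GFP-negative cells, which they call quiescent, and total RNA was amplified and hybridised. Each group has 3 arrays from animals of the same strain, age and tissue, with no other treatment named. What drives the reporter is not given in the sources used here. Values are log2 intensities. The array medians over all probe sets ran from 4.60 to 4.74, and 3 arrays a group set the precision. Each difference is the GFP-positive mean less the GFP-negative mean, with its SE from limma. P-values were adjusted by Benjamini-Hochberg over every probe set of the array, and a probe set is called at an adjusted p below 0.05.

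A nucleosome is built of H2A, H2B, H3 and H4, and H1 binds the linker DNA between nucleosomes. Most clustered histone genes are transcribed in S phase, when the cell needs to cover its copied DNA, and their mRNAs end in a stem-loop in place of a poly(A) tail. A few members are known to make polyadenylated transcripts in resting tissue as well, among them H1f2, H2bc4 and H2bc21. Cyclin B1 itself accumulates later, in G2 and M phase. Which stages of the cycle the reporter marks in these cells was not tested.

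The promoters of these genes carry short elements that differ by family, and those before the H4 genes are shown first because the H4 family holds most of the called probe sets. The sequences are the 120 bases before the gene start, 5′ to 3′, from RefSeq on GRCm38.p6. Capitals mark every match, on either strand, to the CCAAT box (CCAAT), the TATA box (TATAAA), the octamer of H2B promoters (ATTTGCAT), the core of H4 site II (GGTCCG) or the H1 box (AAACACA), so a CCAAT box on the other strand reads ATTGG.
H4c4 (chr13:23581448-23581567, plus strand): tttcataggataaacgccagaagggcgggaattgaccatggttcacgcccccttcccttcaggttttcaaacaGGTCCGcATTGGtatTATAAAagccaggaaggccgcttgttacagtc
H4c6 (chr13:23551669-23551788, minus strand): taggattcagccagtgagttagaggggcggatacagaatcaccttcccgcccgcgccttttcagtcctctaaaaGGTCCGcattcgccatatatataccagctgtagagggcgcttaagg
H4c3 (chr13:23698459-23698578, minus strand): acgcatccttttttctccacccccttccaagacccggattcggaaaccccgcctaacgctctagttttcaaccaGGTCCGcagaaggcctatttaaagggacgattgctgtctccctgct
H4c9 (chr13:22041363-22041482, minus strand): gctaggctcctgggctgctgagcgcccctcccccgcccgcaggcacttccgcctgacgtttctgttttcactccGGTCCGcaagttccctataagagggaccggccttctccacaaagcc

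In H4c6, H4c3 and H4c9 the first base of GGTCCG lies 46 bases before the start, and in H4c4 it lies 47 bases before it. Over the 250 bases before the start, GGTCCG occurred in 9 of 12 H4 promoters and in 6.72% of all 32851 promoters in the table. The CCAAT box occurred in 3 of the 12 H4 promoters, against 52 of 63 clustered histone promoters and 33.8% of all promoters. These matches are letters in a window and say nothing of binding.

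The linker histone promoters show another arrangement, given for 1 member that was called (H1f5), 1 with a smaller difference (H1f1) and 1 that was not called and had a negative difference (H1f2).
H1f5 (chr13:21780626-21780745, minus strand): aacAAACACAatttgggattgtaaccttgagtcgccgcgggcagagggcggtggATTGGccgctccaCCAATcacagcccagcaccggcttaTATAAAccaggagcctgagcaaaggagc
H1f1 (chr13:23763548-23763667, plus strand): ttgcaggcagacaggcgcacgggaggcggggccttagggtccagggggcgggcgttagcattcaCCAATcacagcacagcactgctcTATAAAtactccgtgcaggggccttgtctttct
H1f2 (chr13:23738687-23738806, plus strand): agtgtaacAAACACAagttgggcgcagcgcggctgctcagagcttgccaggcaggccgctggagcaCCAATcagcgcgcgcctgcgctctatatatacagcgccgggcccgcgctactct

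The H1 box occurred in 5 of 6 H1 promoters and in 6.25% of all promoters. Its first base lies 117 bases before the start in the called H1f5 and 112 bases before it in the uncalled H1f2. A link between the H1 box and the differences was not tested. The CCAAT box occurred in 6 of 6.

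The H2B promoters are given for the called H2bc18 and for H2bc14 and H2bc3, which all hold the octamer.
H2bc18 (chr3:96269580-96269699, plus strand): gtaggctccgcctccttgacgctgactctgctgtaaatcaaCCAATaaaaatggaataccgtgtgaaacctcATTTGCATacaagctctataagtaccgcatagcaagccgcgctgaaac
H2bc14 (chr13:21721924-21722043, plus strand): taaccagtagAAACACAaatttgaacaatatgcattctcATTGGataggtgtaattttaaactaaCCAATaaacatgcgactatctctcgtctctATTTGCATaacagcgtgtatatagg
H2bc3 (chr13:23746614-23746733, plus strand): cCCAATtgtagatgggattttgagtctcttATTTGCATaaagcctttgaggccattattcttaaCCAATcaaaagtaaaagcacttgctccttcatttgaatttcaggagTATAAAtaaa

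The octamer occurred in 7 of 17 H2B windows, 7 of 18 H2A windows and 1.6% of all promoters. The promoter entries of 10 of the 18 H2A windows overlap that of an H2B gene, so the H2A and H2B counts share sequence. All 17 H2B and 18 H2A windows hold a CCAAT box. No octamer was found in the 12 H4, 10 H3 or 6 H1 windows.

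**Figure D1:**
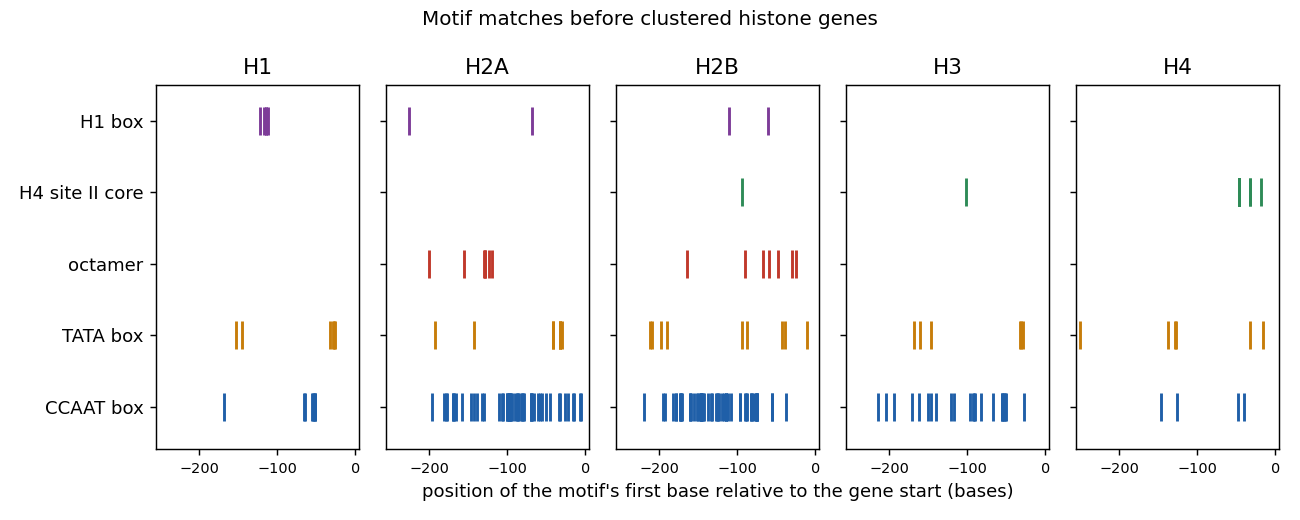
Positions of motif matches in the 250 bases before the start of clustered histone genes, with 1 panel per family; each tick is the first base of a match on either strand, and the x axis is in bases relative to the gene start. GGTCCG (H4 site II core) lies within 47 bases of the start in every H4 promoter that holds it, and the H1 box of 5 H1 promoters lies between 112 and 122 bases before it.

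Of the 58 clustered histone probe sets, 9 were higher in GFP-positive cells and none was lower, against 0.85% of all probe sets higher and 0.0169% lower. At an unadjusted p below 0.05, limma placed 42 of the 58 higher and 1 lower (H3c15), against 5.52% and 2.46% of all probe sets. Shared probe sets repeat the same genes, and of the 31 single-symbol ones 18 were higher at that level. The 9 were 7 of H4, 1 of H1 (H1f5) and 1 of H2B (H2bc18). None of H2A, H3 or the mixed probe sets was called, with 2, 11 and 2 higher at an unadjusted p below 0.05. Since 2 of the 7 called H4 probe sets hold identical values in every array, the 9 hold 8 different value profiles. Of these 7, 5 list the same 11 genes, H4c4 among them, and are repeated readings of one pool. All 3 GFP-positive arrays lay above all 3 GFP-negative arrays in 45 of the 58, against 7.46% of all probe sets, and below them in 1 (H2bc4), against 5.72%. Of the 31 single-symbol probe sets, 20 lay above without overlap. The median difference was 0.84 over the 58 members and -0.01 over all probe sets. The count of 9 fell to 3 without GFP-negative 3 and to 5 without GFP-positive 1. In both cases the calls left were all readings of that H4 pool. In sorted bulk cells, a change in how many cells carry a transcript and a change in its amount per cell cannot be told apart.

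**Figure D2:**
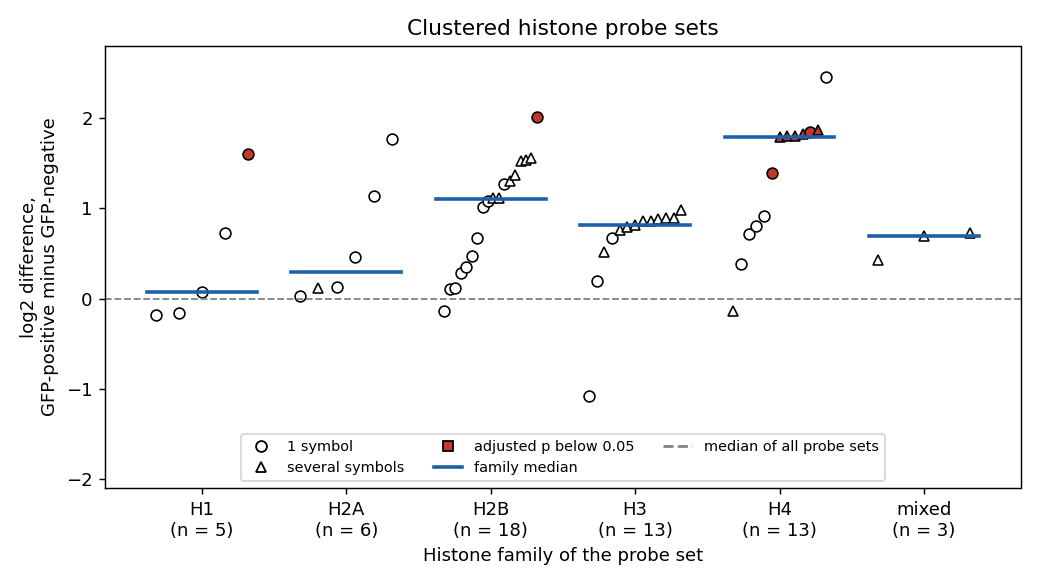
Log2 difference, GFP-positive minus GFP-negative, of each of the 58 probe sets by family; circles list 1 symbol, triangles several, red fill marks an adjusted p below 0.05, blue bars are family medians and the dashed line is the median of all probe sets. Family medians run from 0.07 in H1 to 1.79 in H4, and 7 of the 9 red symbols are in H4. Shared probe sets repeat the same genes, and the H4 median is 0.92 over its single-symbol probe sets.

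H4, the most conserved core histone, had the highest family median, 1.79 over 13 probe sets, of which 5 are repeated readings of the same genes. Over the 7 single-symbol probe sets it was 0.92. Of the 13, 12 lay above 0, against 48.7% of all probe sets. The 5 probe sets that list 11 H4 genes of the Hist1 cluster each were all called. Probe set 10404067 stood at 8.52, 8.39 and 8.46 in GFP-negative 1, 2 and 3 and at 10.44, 9.97 and 10.56 in the GFP-positive arrays. The GFP-positive values all lie above the GFP-negative ones, and GFP-positive 2 is the lowest of its group. The difference was 1.87 ± 0.18, or 3.65-fold (adjusted p = 0.0066).

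The other probe sets of this kind differed by 1.79 to 1.82, with adjusted p-values of 0.0061 to 0.0089. The identical pair missed the threshold without GFP-negative 3 (adjusted p = 0.054). Probe set 10408243 went from 8.11 ± 0.04 to 9.93 ± 0.29 (SD, n = 3) and probe set 10408074 from 8.30 ± 0.11 to 10.09 ± 0.30. Probe sets 10403957 and 10408092 are the pair with identical values, 7.98 ± 0.11 and 9.78 ± 0.32. They list the same genes, so the 5 are repeated readings of a pool of H4 transcripts and not 5 separate genes.

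Of 7 H4 genes with a probe set of their own, 2 were called, H4c4 and H4c14. H4c4 (once Hist1h4d, probe set 10404051) stood at 7.97, 7.80 and 7.65 in GFP-negative 1, 2 and 3. In GFP-positive 1, 2 and 3 it stood at 9.73, 9.30 and 9.93. All GFP-positive arrays are higher, and the difference was 1.84 ± 0.20, or 3.59-fold (adjusted p = 0.0098). The call was lost without GFP-negative 2, GFP-negative 3 or GFP-positive 1 (adjusted p = 0.053, 0.059 and 0.051).

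H4c14 (once Hist2h4, probe set 10500333) lies in another cluster, on a different chromosome from the Hist1 genes. Its values were 7.52, 7.25 and 7.40 in the GFP-negative arrays and 8.96, 8.57 and 8.81 in the GFP-positive arrays. The groups do not overlap, and the difference was 1.39 ± 0.16, or 2.62-fold (adjusted p = 0.012). The call was lost without GFP-negative 2 or 3 or GFP-positive 1 or 3 (adjusted p = 0.054 to 0.068).

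H4c6 (once Hist1h4f, probe set 10408200) had the largest difference of all 58 but was not called. It read 4.72, 4.38 and 4.15 in GFP-negative cells and 7.42, 5.57 and 7.64 in GFP-positive cells. GFP-positive 2 lies well under the other GFP-positive arrays but above every GFP-negative one. The difference was 2.46 ± 0.53 (adjusted p = 0.17), and without GFP-positive 2 it was 3.12 (adjusted p = 0.0056). Its GFP-negative mean lay below the array medians, so the fold is a bound of at least 4.56-fold, with values under an array's median raised to that median.

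H4c3 (0.92 ± 0.31), H4c8 (0.81 ± 0.23), H4f16 (0.72 ± 0.21) and H4c9 (0.39 ± 0.17) did not pass, with adjusted p-values of 0.35 to 0.67. In each of them the GFP-positive arrays were all above the GFP-negative ones, as in 7.46% of all probe sets. The margin was narrowest in H4c9, 5.289 against 5.283. The GFP-negative mean of H4c8 (4.13) lies below the array medians, so its fold is a bound of at least 1.25-fold. The printed promoters of H4c4, H4c6, H4c3 and H4c9 all hold GGTCCG at nearly the same place, and the measured differences run from 0.39 to 2.46. A link between this element and the differences was not tested. The probe set shared by H4c17 and H4c11 was the 1 H4 member below 0 (-0.14 ± 0.35, adjusted p = 0.97), at 3.86, 4.83 and 4.36 against 4.25, 3.63 and 4.76, with both groups overlapping and below the array medians on average.

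**Figure D3:**
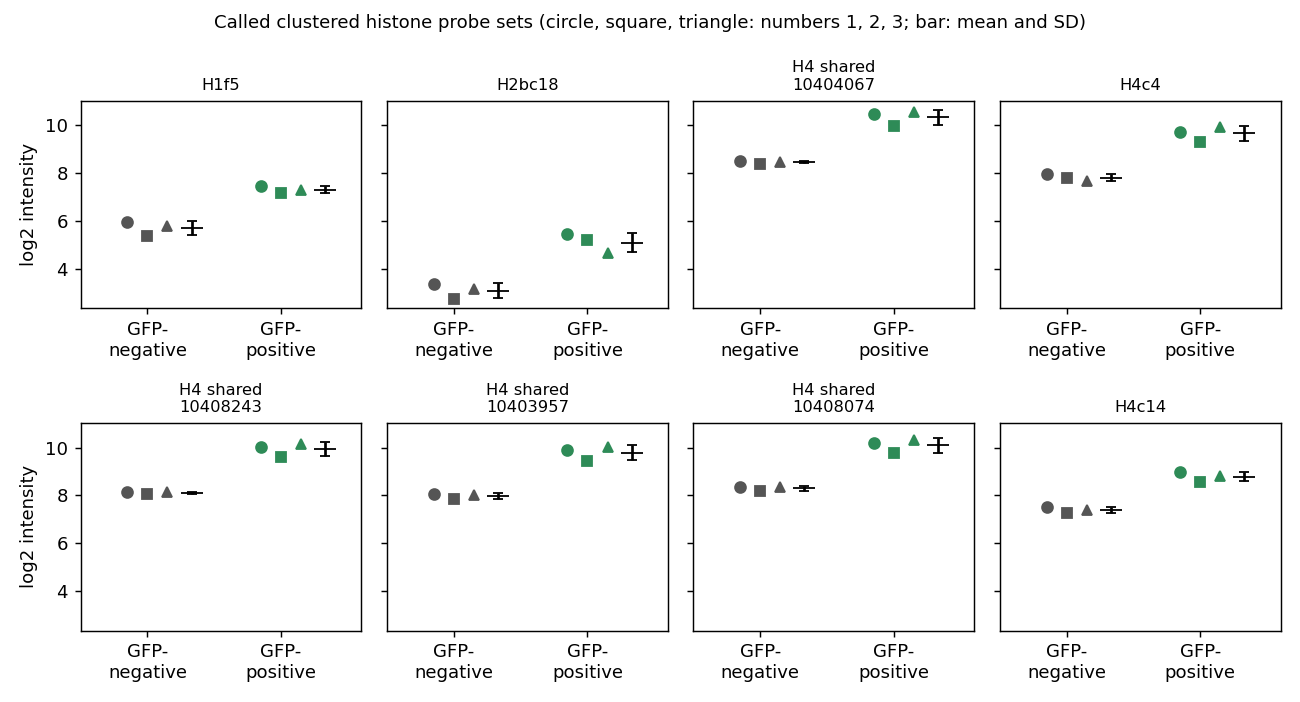
Log2 intensity in each array of the 8 different value profiles among the 9 called probe sets, of which 4 read the same pool of H4 genes. Circles, squares and triangles are numbers 1, 2 and 3, and black bars are the mean ± SD of 3 arrays. Every GFP-positive value lies above every GFP-negative value in all 8 panels.

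H1 had the lowest family median, 0.07 over 5 probe sets, with differences from -0.18 to 1.61. The median moved with single arrays: leaving out GFP-negative 1 or 2 gave 0.131 or 0.025, leaving out GFP-positive 1 or 3 gave 0.160 or 0.045, and array weights gave -0.011. H1f5 (once Hist1h1b, probe set 10408081), a linker histone of dividing cells, stood at 5.95, 5.36 and 5.77 in GFP-negative and 7.46, 7.17 and 7.27 in GFP-positive cells. The GFP-positive arrays are close together and well above the others. The difference was 1.61 ± 0.19, or 3.05-fold (adjusted p = 0.015). The call was lost without GFP-negative 3, GFP-positive 1 or GFP-positive 3 (adjusted p = 0.071, 0.068 and 0.071).

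H1f1 went from 5.27, 5.0 and 5.43 to 6.07, 5.96 and 5.85, again with no overlap, but it did not pass (0.73 ± 0.16, adjusted p = 0.16). H1f2, a linker histone also made outside S phase, was at 9.97, 9.81 and 9.83 in GFP-negative and 10.06, 9.20 and 9.80 in GFP-positive cells. These overlap, GFP-positive 2 being the low one, and the difference was -0.18 ± 0.23 (adjusted p = 0.92). Without GFP-positive 2 it was 0.06. H1f3 (0.07 ± 0.14) lay below the array medians in both groups.

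In H2B, 17 of 18 probe sets lay above 0, against 48.7% of all probe sets. The family median was 1.10, or 0.47 over the 11 single-symbol probe sets. H2bc18 (once Hist2h2bb, probe set 10494407) read 3.34, 2.74 and 3.16 in GFP-negative and 5.44, 5.18 and 4.65 in GFP-positive cells. The groups are well apart, though the GFP-negative values lie below the array medians. The difference was 2.01 ± 0.25 (adjusted p = 0.020, or 0.050 with the replicate number as a block, where it still passed), and the fold is at least 1.36-fold. Leaving out any array but GFP-positive 3 ended the call (adjusted p = 0.063 to 0.1), and log2(value + 16) did so as well (0.052).

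H2bc21 (once Hist2h2be, probe set 10494388), of the same Hist2 cluster, stood at 8.27, 7.26 and 7.94 in GFP-negative cells and at 9.12, 9.10 and 9.06 in GFP-positive cells. The GFP-positive arrays hardly differ while the GFP-negative ones spread widely, with number 2 lowest, and the difference of 1.27 ± 0.26 did not pass (adjusted p = 0.13). H2bc14 (1.09 ± 0.33), H2bc3 (1.02 ± 0.31), H2bc8 (0.67 ± 0.14), H2bc9 (0.47 ± 0.17) and H2bc22 (0.35 ± 0.13) did not pass either, with adjusted p-values of 0.13 to 0.54. Their groups did not overlap, with the GFP-positive arrays higher in each, as in 7.46% of all probe sets.

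H2bc4 (once Hist1h2bc, probe set 10404053) was the 1 H2B member below 0. It was at 10.87, 10.72 and 10.76 in GFP-negative and at 10.62, 10.71 and 10.62 in GFP-positive cells. All GFP-positive values lie just under the GFP-negative ones, and the difference of -0.14 ± 0.12 did not pass (adjusted p = 0.89).

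The 7 H2B probe sets that list 14 or 15 genes each had differences of 1.11 to 1.56, none of them called (adjusted p = 0.27 to 0.40). Their mean over probe sets was 8.17, 7.95 and 7.20 in GFP-negative 1, 2 and 3 and 9.42, 8.44 and 9.53 in GFP-positive 1, 2 and 3. GFP-negative 3 and GFP-positive 2 are each the lowest of their group. The SEs ran from 0.29 to 0.41, against 0.17 to 0.19 for the H4 probe sets that list 11 genes. Probe sets 10403959 and 10408087 hold identical values.

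H3 had a family median of 0.82, or 0.19 over its 3 single-symbol probe sets. Of its 13 probe sets, 12 lay above 0, against 48.7% of all probe sets. The 10 probe sets that list 12 H3 genes each, of both the Hist1 and the Hist2 cluster, differed by 0.52 to 0.99. Their SEs were 0.14 to 0.18. In all 10 the GFP-positive arrays lay above the GFP-negative ones, against 7.46% of all probe sets. None was called (adjusted p = 0.069 to 0.48). The largest, probe set 10404065, went from 6.15, 6.19 and 6.38 to 7.23, 6.97 and 7.47 (0.99 ± 0.17). It passed without the third of probe sets with the lowest means (adjusted p = 0.041) and with array weights (0.029), and probe set 10494405 passed with log2(value + 16). The 10 list the same 12 genes, so they are repeated readings of one pool.

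The H3 genes with their own probe sets did not follow one pattern. H3c4 stood at 4.78, 4.90 and 5.02 in GFP-negative and 5.12, 5.85 and 5.73 in GFP-positive cells (0.67 ± 0.21, adjusted p = 0.43). H3c7 was below the array medians in every array (0.19 ± 0.16). H3c15 had the lowest measured difference of the 58, at 5.12, 3.69 and 5.30 against 4.02, 3.47 and 3.39. The groups overlap through GFP-negative 2, and the difference of -1.08 ± 0.43 did not pass (adjusted p = 0.60). Its GFP-positive mean of 3.63 lies below the array medians, and with values under the medians raised to them the fold is at least 1.25-fold lower. Its probe set is annotated through a cDNA entry alone.

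**Figure D4:**
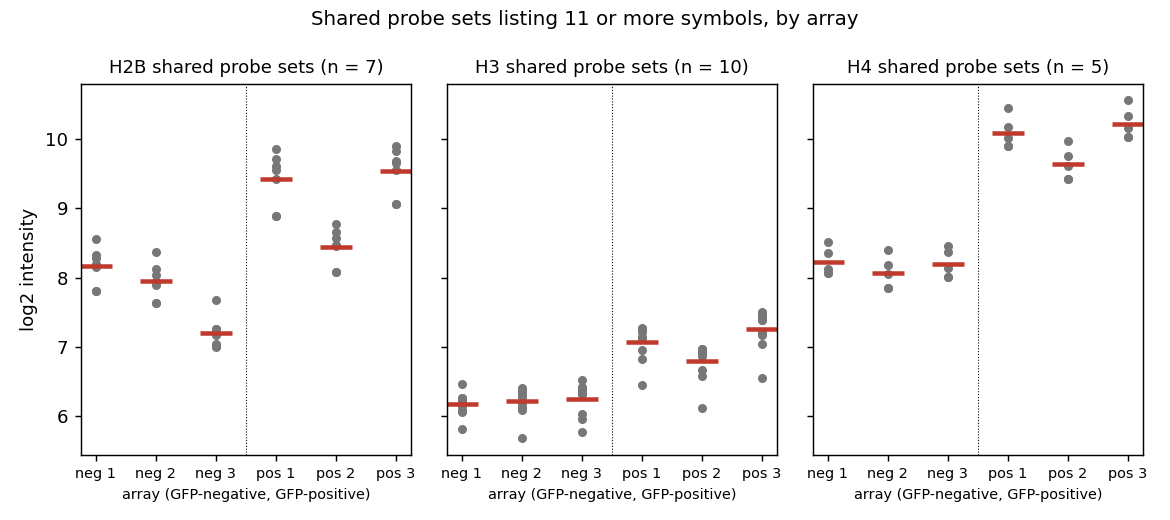
Log2 intensity by array of the shared H2B (n = 7), H3 (n = 10) and H4 (n = 5) probe sets that list 11 or more symbols; grey points are probe sets and red bars are their means, with GFP-negative arrays left of the dotted line and GFP-positive arrays right of it. H2B means drop to 7.20 in GFP-negative 3 and 8.44 in GFP-positive 2, while the H4 means stay between 8.07 and 8.23 in GFP-negative arrays.

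In H2A, 6 of 6 probe sets lay above 0, against 48.7% of all probe sets, and none was called. H2ac4 (once Hist1h2ab, probe set 10404063) read 2.85, 2.82 and 2.93 in GFP-negative and 4.72, 3.89 and 5.31 in GFP-positive cells. No value overlaps, but the GFP-positive arrays spread over more than a log2 unit and both group means lie below the array medians (1.77 ± 0.34, adjusted p = 0.11). It passed without GFP-positive 2 (2.15, adjusted p = 0.019). H2ac15 went from 5.33, 5.31 and 4.598 to 6.47, 6.08 and 6.10 (1.14 ± 0.24, adjusted p = 0.15), with GFP-negative 3 the lowest. H2aw of the Hist3 cluster (0.47 ± 0.22) overlapped between groups, as did the probe set it shares with Trim17 (0.11 ± 0.17). H2ac8 differed by 0.03 ± 0.15 at values under 2.06 in every array, and its sign turned to -0.06 with quantile normalization and to -0.001 with median centring.

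The mixed probe sets list H2A genes with H3c4 (probe sets 10494386 and 10409220, of 19 and 20 symbols, 18 of them clustered and H2ax among the others), or H2bc6 with H1f4 (10408212). The former stood at 7.57, 7.46 and 7.34 against 8.25, 7.94 and 8.38 (0.73 ± 0.16) and at 8.39, 8.30 and 8.02 against 9.005, 8.77 and 8.999 (0.69 ± 0.15). The H2bc6 and H1f4 probe set differed by 0.43 ± 0.19. In all 3 the GFP-positive arrays were the higher ones, against 7.46% of all probe sets, with adjusted p-values of 0.17 to 0.66. Probe sets 10494386 and 10409220 list nearly the same genes and are not separate readings.

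The clustered histones of the male germ line gave no called difference. H1f6, the testis linker histone H1t, differed by -0.16 ± 0.13, H2ac1 by 0.13 ± 0.12 and H2bc1 by 0.28 ± 0.20, with adjusted p-values of 0.85 to 0.89. The groups overlapped in H1f6 and H2bc1, whose means lay below the array medians in both groups. In H2ac1 the GFP-positive arrays (6.45 to 6.49) all lay above the GFP-negative ones (6.23 to 6.44). H2bu2 (0.12 ± 0.14) and the pseudogene H2bu1-ps (0.11 ± 0.135), both of the Hist3 cluster, had overlapping groups and lay below the array medians in each group. In all, 12 of the 58 probe sets had a GFP-negative mean below the array medians, and 9 were below them in both groups.

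The 27 shared probe sets had a median difference of 0.89 with 25 not overlapping upward, and the 31 single-symbol ones 0.67 with 20. Called were 5 of 27 and 4 of 31. Over all probe sets, 7.46% did not overlap upward and 0.85% were called higher. The shared and the single-symbol probe sets were not tested against each other, and the shared ones repeat the same genes.

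The arrays numbered 2 gave smaller differences than the others in the shared probe sets, and less regularly in the single-symbol ones. GFP-positive 2 was the lowest GFP-positive array in 42 of the 58 probe sets, against 33.5% of all probe sets. The 42 are 26 of the 27 shared ones, which repeat the same genes, and 16 of the 31 single-symbol ones. It was so in 2 of 5 H1 probe sets and in none of the 3 single-symbol H3 probe sets. Between arrays of the same number, the median difference of the 58 was 0.88, 0.52 and 1.06 for numbers 1, 2 and 3, while that of all probe sets was -0.01, 0.06 and -0.04. The shared H2B probe sets varied most, with medians of 1.29, 0.45 and 2.53, and the shared H4 probe sets had 1.82, 1.57 and 2.02. H2bc18 (2.10, 2.44 and 1.49) and H1f5 (1.51, 1.81 and 1.51) ran the other way, with number 2 the largest, as in the H1 family median (0.09, 0.29 and 0.15). Number 2 of both groups alone had high Xist (9.03 and 9.80, against 3.73 to 4.04), the transcript of the inactive X chromosome of females, so number 2 cannot be told apart from sex.

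**Figure D5:**
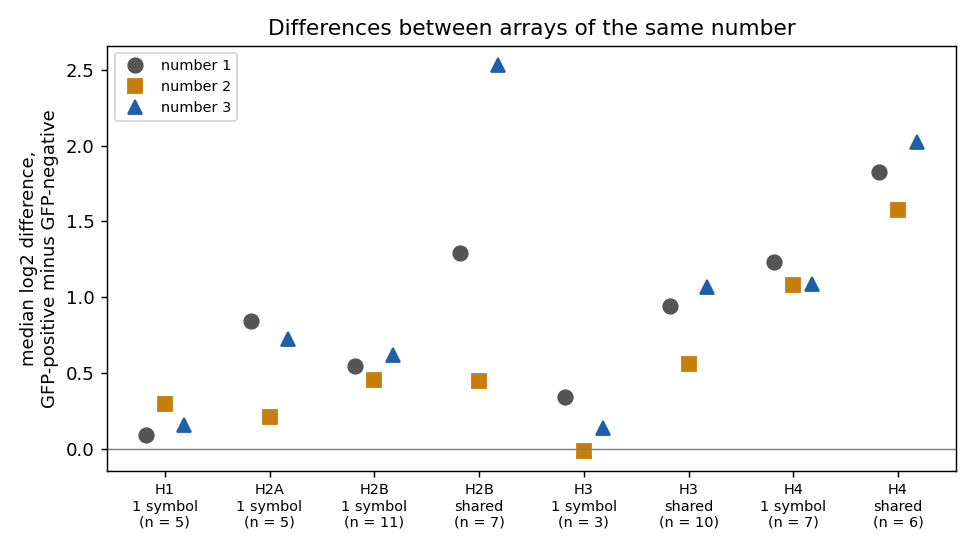
Median log2 difference between the GFP-positive and the GFP-negative array of the same number, for single-symbol and shared probe sets of each family; circles, squares and triangles are numbers 1, 2 and 3. Shared H2B probe sets spread from 0.45 to 2.53 and shared H4 probe sets from 1.57 to 2.02.

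Histone variants outside the clusters, many of which are made outside S phase or placed at special sites, were measured for 9 of 11 listed genes, and 3 rose and none fell, or 1 with the replicate block. Of all probe sets 0.85% were called higher, and 0.569% with the block. H2ax, the variant phosphorylated at DNA breaks, went from 6.35, 5.76 and 5.98 to 8.15, 7.97 and 8.10 (2.04 ± 0.18, adjusted p = 0.0043). H2az1, a variant at gene starts, differed by 1.41 ± 0.15 (adjusted p = 0.0090, or 0.063 with the replicate block). Cenpa, the centromeric H3, differed by 1.93 ± 0.24 (adjusted p = 0.019, or 0.079 with the block). H3f3a, Macroh2a1, Macroh2a2, H2aj, H2az2 and H1f10 did not pass, at differences between -0.28 and 0.70.

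None of 19 measured genes of histone mRNA transcription and processing passed in limma, and 3 were higher and none lower at an unadjusted p below 0.05, against 5.52% and 2.46% of all probe sets. Slbp, which binds the histone stem-loop, differed by 0.25 ± 0.18, and Npat, the S phase activator of histone transcription, by 0.46 ± 0.35. Casp8ap2, a partner of that machinery, had the largest difference (0.94 ± 0.27, adjusted p = 0.35). None of 12 histone chaperone genes passed either, and 9 were higher and none lower at an unadjusted p below 0.05, against the same 5.52% and 2.46% (median 0.52). The largest was Hat1, which acetylates new H4 (1.07 ± 0.23, adjusted p = 0.16), followed by the chaperone Asf1b (0.98 ± 0.21, adjusted p = 0.17).

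Of 19 measured genes of S phase entry and DNA synthesis, 8 rose and none fell, or 3 with the replicate block, against 0.85% and 0.569% of all probe sets higher. All 19 lay above 0 (median 1.16), against 48.7% of all probe sets. Ccna2, the cyclin of S and G2 phase, differed by 3.97 ± 0.26 (adjusted p = 0.0012) and Rrm2, a ribonucleotide reductase subunit, by 2.735 ± 0.22 (adjusted p = 0.0027). The median of this list was 1.11, 1.12 and 1.34 in numbers 1, 2 and 3. Number 2 was thus not the lowest here, while it was the lowest in the median over all 58 histone probe sets.

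Of 56 measured cell type markers, none passed in limma. At an unadjusted p below 0.05 in limma, none was higher and 5 were lower, against 5.52% and 2.46% of all probe sets. Hepatocyte markers differed by a median of -0.13, and their summed intensity lay between 15.41 and 15.49 on the log2 scale in GFP-negative and between 15.30 and 15.37 in GFP-positive arrays. The sums were lower without overlap also for Kupffer cells (7.46 to 7.81 against 7.24 to 7.39), endothelium (8.35 to 8.72 against 8.19 to 8.23) and stellate cells (8.52 to 8.69 against 8.11 to 8.29). Those of erythroid markers (7.35 to 8.09 against 7.35 to 7.66) and of lymphoid, neutrophil and cholangiocyte markers overlapped between groups. Single differences lay above 0 for 4 of 8 Kupffer cell, 2 of 8 endothelial and 1 of 8 stellate cell markers, against 48.7% of all probe sets. Of the 49 markers outside hepatocytes, 27 had means below the array medians, among them 6 of the 8 Kupffer cell markers. Their part in the histone differences was not tested.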

How the data were processed

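The authors deposited a linear intensity for each probe set on each array, made with RMA per the submitters' processing notes, with version and settings not given in the sources used here. Log2 was taken, with no further normalization and no filter on low values. All 35512 probe sets were fitted with limma 3.58.1 in R 4.3.3 (lmFit, eBayes without a trend, group as the single term, 4 residual and 2.75 prior degrees of freedom). Probe sets, and not genes, were tested because shared ones have no gene of their own. In the platform annotation 21789 probe sets have 1 symbol, 1621 have several and 12102 have none. Current symbols were matched to the older Hist names through RefSeq's gene table (GRCm38.p6), used for names. Each list gene was read from its single-symbol probe set with the highest mean. Motifs were searched in RefSeq promoters, whose entries cover 62 clustered histone genes.

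The main fit is unpaired. Arrays of one replicate number were treated as a pair from one animal in the replicate block and the within-number differences alone, because the design text says that both fractions came from the same 3 livers and number 2 alone has high Xist in both. No label states this, and for numbers 1, 2 and 3 the 2 arrays' deviations from their group means had correlations of 0.09, 0.02 and -0.03. Every called member was described, with those of the highest mean and of the largest difference either way in each family, and from each gene list the called or largest members. Other members and list genes were named after their values were seen, to account for all 58. The members and lists were chosen with earlier results of these data known. The fit was tested on simulated data. Alternatives were a replicate block, quantile normalization, median centring, a filter on low means, an intensity trend, array weights, log2(value + 16), leaving out arrays, and 1 single-symbol probe set per gene.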

Additional observations from a re-analysis of the deposited data

How the results depend on the processing

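The 9 called histone probe sets were the same 9 with the replicate block, quantile normalization, median centring and an intensity trend. Array weights called 16, the 9 with H2ac4 and 6 shared H3 probe sets, and called 368 of all 35512 probe sets higher. With log2(value + 16), H2bc18 was lost and the shared H3 probe set 10494405 gained. Leaving out single arrays gave 3 to 10, and leaving out both arrays of number 2, an alternative added once the values were known, gave 6. With 1 single-symbol probe set per gene (19938 tested) 8 were called, the 4 testable ones with H2ac4, H2ac15, H2bc21 and H4c6. In that setting 310 of all 19938 were higher. The median difference of H2B was then 0.467, that of H3 0.192 and that of H4 0.918, since shared probe sets are left out. The H1 median was 0.285 without the third of probe sets with the lowest means, and that of single-symbol members 0.473 with log2(value + 16).

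Over all probe sets, 302 were higher and 6 lower. Leaving out single arrays gave 160 to 236 higher and 1 to 5 lower, and leaving out number 2 gave 117 and 0. The lower count was 2 with the replicate block, 10 with an intensity trend, 12 with array weights, 13 with log2(value + 16) and 23 with 1 probe set per gene.

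Among the named members recomputed singly, signs turned for 3 that were not called, and the cause was not tested. Small differences of other members were not followed. H2ac8 was -0.057 with quantile normalization, -0.001 with centring, -0.081 to 0.106 without single arrays and -0.062 without number 2. The H4c17 and H4c11 probe set was 0.036 with array weights, -0.410 to 0.154 without single arrays and 0.396 without number 2. H1f2 was -0.369 to 0.059 without single arrays and 0.031 without number 2. Values near or below the array medians limit, among others, H2ac8, H3c7, H2ac4, H2bc18, H3c15, H4c6 and H4c8.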
